A study of Homo sapiens with 54 samples.

Results

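The genes described here are 10 members and neighbours of the *ATF4* amino acid and endoplasmic reticulum (ER) stress response, namely *ATF4*, *DDIT3*, *ASNS*, *TRIB3*, *CHAC1*, *PSAT1*, *PHGDH*, *XBP1*, *SLC7A11* and *VLDLR*. They were chosen by name, with earlier results of these data known, and are 10 of the 55906 gene rows in each table. Counts of the set below therefore describe it and are no independent test. Each perturbation was set against its own control in every cell line. RNA-sequencing of 54 libraries, in 18 groups of 3, followed the loss of *TRA2A* and *TRA2B*, paralogous splicing factors of the SR-like family, and asked what each paralog does alone and what is lost when both are gone. A549 and NCI-H23, both lung cancer cell lines, stably expressed Zim3-dCas9, a nuclease-dead Cas9 fused to a repressor domain, in control and perturbed cells alike, and received lentiviral control guides (Control KD), *TRA2A* guides (TRA2A KD), *TRA2B* guides (TRA2B KD) or both (TRA2A/B DKD). They were collected on day 5. LN229 and LN319, both glioma cell lines, received Cas9 and guides by lentivirus in every group and were collected on day 7. Of their groups, 3 carried luciferase (Luc) as the control transgene and guides against a control site, *TRA2A* or *TRA2B* (Luc Control KO, Luc TRA2A KO, Luc TRA2B KO), and the others overexpressed *TRA2B* with control or *TRA2A* guides (TRA2B-OE Control KO, TRA2B-OE TRA2A KO). The paper describes NCI-H23 and LN319 as dependent on *TRA2A* and A549 and LN229 as not dependent on it. It used *TRA2B* overexpression to ask whether more *TRA2B* makes up for lost *TRA2A*. It also reports more apoptosis after *TRA2A* knockdown in dependent lines and after the double knockdown. The part of dependency or apoptosis in the values below was not tested. The cells were transduced populations, so a group can hold cells in which the guide did not act, and no double knockout was made in the glioma lines. Nothing in the labels says that the 3 replicates came from separate cultures, so the p-values measure the spread between these libraries, which may be technical.

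When amino acids run short, when unfolded protein builds up in the ER or when haem is lacking, kinases phosphorylate the translation factor eIF2 alpha. Protein synthesis then falls in general while the *ATF4* mRNA is translated better, and the ATF4 protein turns on genes for amino acid synthesis, uptake and tRNA charging together with the transcription factor CHOP, the product of *DDIT3*. The response is controlled in large part at translation, so the mRNA of its targets is a closer readout of it than the mRNA of *ATF4* itself. The ER has other sensors, IRE1 and ATF6, which act on chaperone genes partly through *XBP1*, whose mRNA IRE1 splices. A value per gene, as used here, does not show that splicing.

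Sites in the promoters of some of these genes are known for the factors of this response, and the sequences below are those in which searched motifs were found. The windows came from RefSeq (GRCh38.p14) and run from 250 bases before to 50 bases after an annotated start. They were present for 9 of the 10 genes and not for *SLC7A11*. The CARE, the element bound by ATF4 with a C/EBP partner, was searched as TGATGNAA on both strands and was found in windows of 2 of the 9 genes, *ASNS* and *CHAC1*. Of all 35116 windows, 3.62% held it. The ER stress response element (ERSE) was searched as CCAAT and CCACG with 9 bases of any kind between them and was found in 1 of the 9 genes, *XBP1*, against 0.0769% of all windows. The unfolded protein response element (UPRE), TGACGTGG, was in 0 of the 9 genes and in 0.729% of all windows. The counts are of genes with a match in any of their windows and the shares are of single windows, so their units differ. The matches did not overlap each other. Motif letters are in capitals and each line reads 5′ to 3′ on the strand of the gene.
ASNS: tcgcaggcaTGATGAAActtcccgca
CHAC1: cccctgccgTTGCATCActcctgcca
XBP1: ctggCCAATCGCGGAGGGCCACGaccg
The printed *ASNS* stretch is at chr7:97872460-97872485 on the minus strand, and its match begins 68 bases before the start. The printed *CHAC1* stretch is at chr15:40953253-40953278 on the plus strand, and its match is on the opposite strand of the gene and begins 209 bases before the start. The printed *XBP1* stretch is at chr22:28800599-28800625 on the minus strand, and its match begins 52 bases before the start. In Gencode v44 the *ASNS* stretch also lies in an untranslated exon part of 3 of 17 transcripts and the *CHAC1* stretch in that of 1 of 3, and the *XBP1* stretch lies outside the annotated gene. A match describes letters in these windows and no binding was measured.

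Values are TPM, transcript abundances scaled for transcript length and library total, which allow levels of different genes to be compared within a library. Log2 fold changes are differences of log2(TPM + 0.1) after scaling of the libraries within a cell line, fitted with limma, and a gene passed at a Benjamini-Hochberg adjusted p under 0.05 over all genes tested in that line. With 3 libraries against 3, the smallest two-sided p of an exact permutation test is 0.1, so no gene could pass such a test alone. The filter of at least 1 TPM in at least 4 libraries left 16405 genes (A549), 16293 (NCI-H23), 18490 (LN229) or 19303 (LN319). All 10 genes passed it in 3 lines. In NCI-H23, *VLDLR* did not, and it was not tested there. The TPM columns summed to between 928908 and 964610 and keep no record of depth, so errors here come from the spread of replicates alone. Mitochondrial genes took 6.02% of TPM in the lowest library and 33.4% in the highest.

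The lines were compared with marker genes of their labels. A549 held *KRT7*, *KRT8* and *KRT18* keratins at 1949 TPM or more, but *EPCAM* at no more than 3.77 TPM and *CDH1* at 7.95 to 25.2 TPM, while NCI-H23 held *KRT8* and *KRT18* at 445 TPM or more and *KRT7*, *EPCAM* and *CDH1* at no more than 4.49 TPM. Of the glial and neural stem markers, *GFAP* was at most 5.17 TPM in both glioma lines. In LN229 *SOX2* was at 20.4 TPM or more, *NES* at 213 TPM or more, *S100B* at 56.5 TPM or more and *OLIG2* at 5.93 to 14.2 TPM. In LN319 *SOX2* was at 316 TPM or more, *NES* at 6.12 to 14.7 TPM, and *OLIG2* and *S100B* at no more than 0.14 and 1.07 TPM, and *CDH1*, an epithelial gene, was at 116 to 150.1 TPM in LN319. *PTPRC*, *PECAM1* and *VWF*, which mark leukocytes and endothelium, were at most 1.83 TPM in any library. *CD68*, the other leukocyte marker, was at 5.36 to 44.8 TPM over the 4 lines. Replicate 3 of the A549 Control KD stood apart, with a median correlation of 0.837 with the other A549 libraries against 0.872 or more for the rest. In LN229, replicate 1 had the highest *S100B* of its group in 5 of 5 groups. It was at 834 TPM against 276 and 256 TPM in Luc Control KO, at 319 against 139 and 116 TPM in Luc TRA2A KO, at 496 against 169 and 165 TPM in TRA2B-OE Control KO, and at 133 against 66.1 and 56.5 TPM in TRA2B-OE TRA2A KO. The 3 Luc TRA2B KO libraries were closer, at 1035, 949.6 and 937 TPM. Results that rest on these libraries are given with and without them.

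Guides lowered their targets in the lung lines. In the DKD, *TRA2A* was at 13.9% and *TRA2B* at 16.3% of control in A549, and at 20.5% and 25.2% in NCI-H23. Target means were lower in the single knockdowns. *TRA2A* was at 7.18 TPM in TRA2A KD and 10.4 TPM in DKD (A549), and at 6.84 and 21.5 TPM (NCI-H23). *TRA2B* was at 13.3 TPM in TRA2B KD and 22.4 TPM in DKD (A549), and at 9.75 and 23.3 TPM (NCI-H23). The other paralog had a higher mean than in Control KD. *TRA2B* was at 163 against 137 TPM (A549) and 136 against 92.2 TPM (NCI-H23), and *TRA2A* at 97.4 against 75.1 TPM and 156 against 105 TPM. In Luc cells *TRA2A* KO left 62.9% of the *TRA2A* mRNA in LN229 and 33.2% in LN319, and *TRA2B* KO left 66% and 35.1% of the *TRA2B* mRNA. In the TRA2B-OE cells, *TRA2A* KO left 87.2% of the TRA2B-OE Control KO level in LN229, which did not pass (adjusted p = 0.0793 from limma), and 52.8% in LN319. Mean *TRA2A* was already lower in TRA2B-OE Control KO than in Luc Control KO, at 80.2 against 109 TPM (LN229) and 91.1 against 107 TPM (LN319). After *TRA2A* KO it was 69.9 TPM in TRA2B-OE and 68.8 TPM in Luc cells of LN229, and 48.1 and 35.5 TPM in LN319. Cas9 changes coding sequence, so the mRNA left need not equal the protein left. *TRA2B* mRNA in TRA2B-OE Control KO was at 374% of Luc Control KO in LN229 and at 873% in LN319.

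In control cells the 10 genes stood at different levels in the 4 lines. The tables were made separately, so these levels are set side by side without a test. A549 had the lowest mean of *DDIT3*, 6.68 TPM, followed by NCI-H23 at 32.2 TPM, LN319 at 61.7 TPM and LN229 at 105 TPM. *CHAC1* ran in the same order, from 3.15 TPM in A549 through 5.07 and 7.09 TPM to 13.9 TPM in LN229, so the lung lines, in which the double knockdown was made, had the lowest levels of both. *SLC7A11* was highest in A549, at 81.6 TPM, and lowest in NCI-H23, at 5.51 TPM. *VLDLR* was at 208 TPM in LN319 and at 15.1 TPM or less in the other lines.

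The double knockdown raised nearly the whole set in both lung lines. In A549, 8 of 10 genes rose and 0 fell, against 14.3% of all tested genes that were higher and 16.3% that were lower. In NCI-H23, 9 of 9 tested genes rose, against 20% higher and 23.2% lower. The median log2 fold change of the set was 1.71 in A549 and 1.46 in NCI-H23, where the median over all tested genes was 0.03 and 0.02. When the TPM were used as deposited, without scaling, the median of all genes moved to 0.11 in A549 and 0.17 in NCI-H23, and the counts of the set stayed at 8 and 9. Of all genes called, 46.6% (A549) and 46.2% (NCI-H23) were higher in the DKD with scaling, and 57% and 63% without it.

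**Figure D1:**
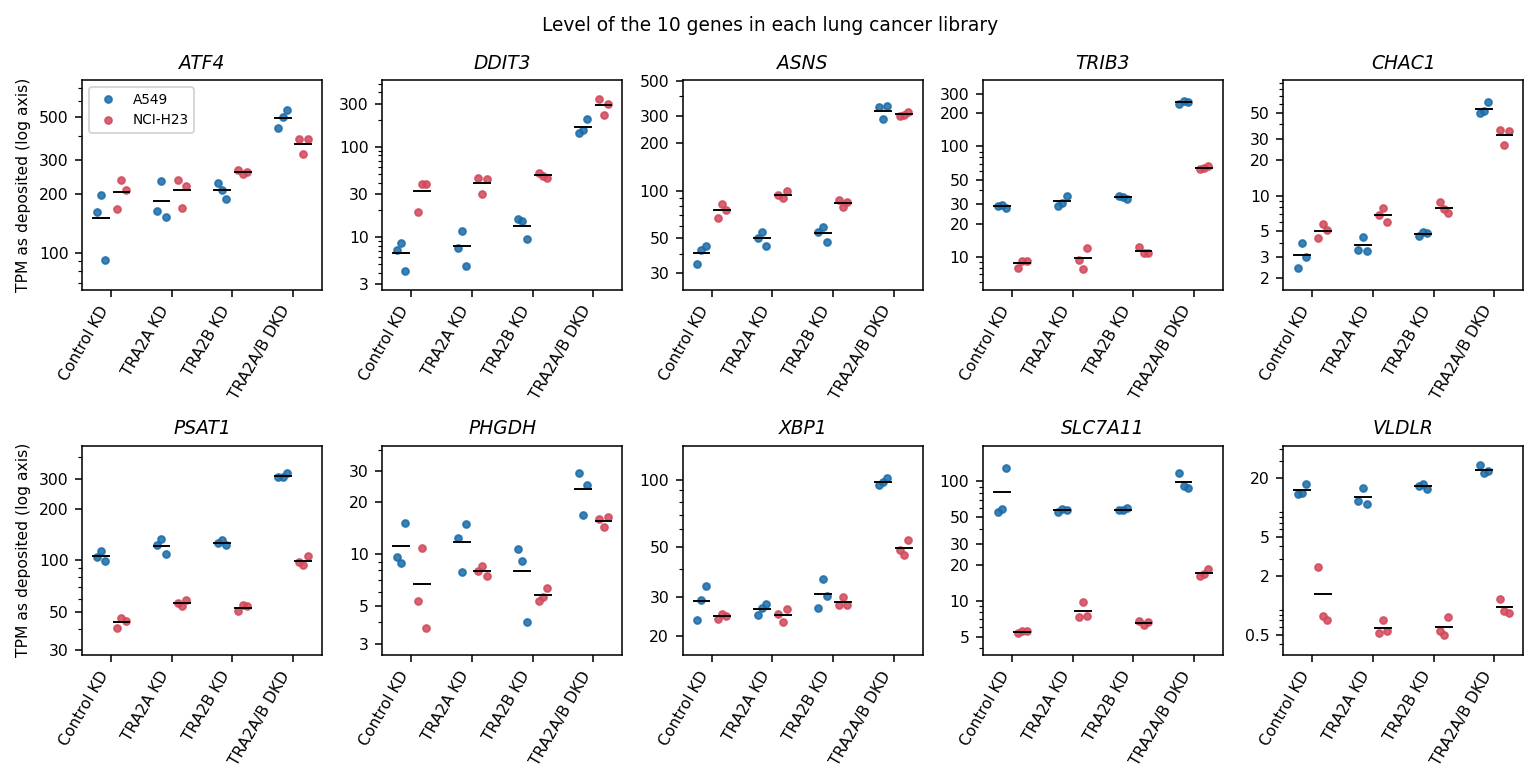
TPM as deposited (log axis) of the 10 genes in each A549 (blue) and NCI-H23 (red) library, with 3 points per group and a black bar at the mean. The 3 DKD libraries sit above the controls for every gene except *SLC7A11* in A549, where one control is at 131 TPM, and *VLDLR* in NCI-H23. The share of all genes separated in this way was not counted.

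The transcription factors come first. *DDIT3* encodes CHOP (chromosome 12, 57516588 to 57521737, minus strand, hg38, Gencode v44), which ATF4 induces and which acts on genes of growth arrest and cell death. In A549 it was at 7.19, 8.60 and 4.23 TPM in Control KD and at 141, 154 and 200.1 TPM in DKD. Every DKD library lay far above every control, and the mean was 2475% of control. The log2 fold change was 4.57 (standard error, SE, 0.359, adjusted p = 7.85e-06 from limma), the largest of the 10. In NCI-H23 *DDIT3* was at 18.8, 39.1 and 38.8 TPM in Control KD and at 336, 225 and 298 TPM in DKD. These groups did not overlap either, although the controls spread from 18.8 to 39.1 TPM, and the log2 fold change was 3.05 (SE 0.238, adjusted p = 3.30e-06).

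*ATF4* itself (chromosome 22, 39519695 to 39522683, plus strand) had a smaller change than *DDIT3*, *CHAC1*, *TRIB3* and *ASNS* in both lines. In A549 it was at 161, 198 and 91.6 TPM in Control KD and at 437, 501 and 542 TPM in DKD. The lowest control was replicate 3, the library that stood apart. The log2 fold change was 1.70 (SE 0.288, adjusted p = 0.00129). It lay between 1.31 and 1.97, and passed each time, when any 1 library of these groups was left out, replicate 3 included. In NCI-H23 it was 0.68 (SE 0.112, adjusted p = 5.98e-04), from 168, 236 and 210 TPM to 385, 321 and 385 TPM. *ATF4* had the smallest change of the 9 tested genes in NCI-H23. *XBP1*, the factor of the IRE1 arm (chromosome 22, 28794555 to 28800597, minus strand), rose from 23.5, 29.0 and 33.4 TPM to 94.7, 98.4 and 102 TPM in A549. It rose from 23.8, 25 and 24.5 TPM to 48.6, 46.1 and 54 TPM in NCI-H23. Both lines kept their groups apart, with log2 fold changes of 1.71 (SE 0.119, adjusted p = 3.90e-06) and 0.86 (SE 0.0665, adjusted p = 3.10e-06).

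The changes of *TRIB3* and *CHAC1* followed that of *DDIT3* in size. *TRIB3* encodes a pseudokinase that ATF4 and CHOP induce and that restrains the response (chromosome 20, 362835 to 397559, plus strand). It was at 28.8, 29.4 and 27.8 TPM in A549 Control KD and at 243, 257 and 253 TPM in DKD. Replicates differed little within each group, and *TRIB3* ranked 3 of 16405 genes by p, with a log2 fold change of 3.04 (SE 0.116, adjusted p = 1.70e-07). In NCI-H23 it was at 7.94, 9.29 and 9.28 TPM and then at 62.6, 63.9 and 66.1 TPM, a log2 fold change of 2.70 (SE 0.124, adjusted p = 9.44e-08). *CHAC1* encodes an enzyme that degrades glutathione (chromosome 15, 40952962 to 40956512, plus strand). It was at 2.45, 3.98 and 3.04 TPM in A549 Control KD and at 50.1, 51.6 and 61.9 TPM in DKD. This was 1730% of control, with a log2 fold change of 4.01 (SE 0.186, adjusted p = 4.63e-07), and in NCI-H23 the change was 2.50 (SE 0.135, adjusted p = 2.65e-07), from 4.38, 5.70 and 5.12 TPM to 35.8, 26.9 and 35 TPM.

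Among the enzymes of amino acid synthesis, *ASNS*, asparagine synthetase (chromosome 7, 97851677 to 97872542, minus strand), changed most. It was at 34.6, 42.3 and 45.1 TPM in A549 Control KD and at 339, 286 and 345 TPM in DKD. No library of one group approached the other, and *ASNS* ranked 2 of 16405 genes by p (log2 fold change 2.91, SE 0.108, adjusted p = 1.70e-07). In NCI-H23 it went from 67.1, 82.6 and 76.3 TPM to 299.9, 302 and 318 TPM and ranked 5 of 16293 (log2 fold change 1.87, SE 0.0583, adjusted p = 1.37e-08). *PSAT1* and *PHGDH* are enzymes of the serine pathway. *PSAT1* (chromosome 9, 78297125 to 78330093, plus strand) rose by a log2 fold change of 1.48 in A549 and 1.03 in NCI-H23 (adjusted p = 7.23e-06 and 1.88e-07). *PHGDH* (chromosome 1, 119648411 to 119744218, plus strand), the first enzyme of the pathway, had 9.54, 8.85 and 15 TPM in A549 Control KD and 29.4, 16.9 and 25.1 TPM in DKD. The groups did not overlap but the spread was wide, and the log2 fold change of 1.01 (SE 0.368) did not pass, at adjusted p = 0.0587. Leaving out Control KD replicate 3, a pseudocount of 1, a minimum of 5 TPM or a fit of the compared groups alone each brought it past the threshold (adjusted p from 0.0326 to 0.0482). In NCI-H23 *PHGDH* rose from 5.35, 10.8 and 3.73 TPM to 15.9, 14.3 and 16.4 TPM (log2 fold change 1.20, SE 0.279, adjusted p = 0.00532).

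*SLC7A11*, the cystine importer (chromosome 4, 138164097 to 138242349, minus strand), did not pass in A549, a call that turned on 1 library. In A549 it was at 55.8, 58.5 and 131 TPM in Control KD and at 118, 91.3 and 87.3 TPM in DKD. The groups overlapped because of replicate 3 of the control, and the log2 fold change of 0.30 did not pass (adjusted p = 0.312). Without that library it was 0.63 (adjusted p = 0.0016), and 10 of the 10 genes then passed as higher in the A549 DKD, against 17.5% of all genes. In NCI-H23 the controls were tight at 5.35, 5.61 and 5.57 TPM, the DKD libraries were at 16.1, 16.7 and 18.4 TPM, and *SLC7A11* rose by a log2 fold change of 1.46 (SE 0.12, adjusted p = 4.80e-06). *VLDLR*, a lipoprotein receptor (chromosome 9, 2621182 to 2660056, plus strand), rose modestly in A549, from 13.8, 13.9 and 17.5 TPM to 27.1, 22.6 and 23.8 TPM (log2 fold change 0.62, SE 0.125, adjusted p = 0.00355). In NCI-H23 it was between 0.489 and 1.15 TPM in every library but Control KD replicate 1, at 2.44 TPM.

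**Figure D2:**
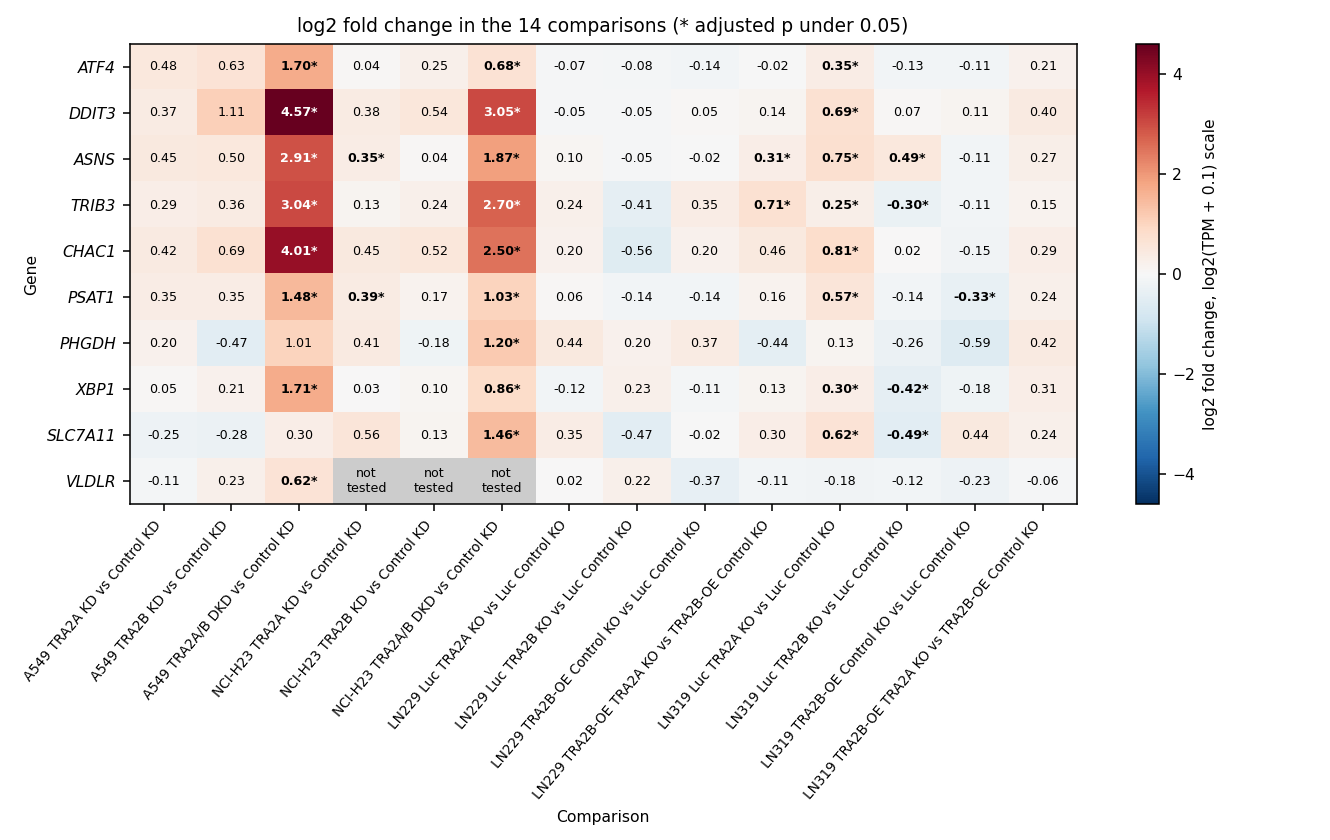
Log2 fold change on the log2(TPM + 0.1) scale of the 10 genes (rows) in the 14 comparisons with a control (columns), with an asterisk and bold type for an adjusted p under 0.05 and grey for genes not tested. The 2 DKD columns hold the largest values, up to 4.57 for *DDIT3* in A549, and the LN319 Luc TRA2A KO column holds 8 smaller increases.

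Few of these genes passed in either single knockdown. In the A549 TRA2A KD, 0 of 10 passed in limma, against 0.207% of all genes, and 4 had an unadjusted p under 0.05, against 11.3% of all genes. In the A549 TRA2B KD, 0 of 10 passed, against 0.341% of all genes, and 5 had an unadjusted p under 0.05, against 13.5%. In the second of these the fold changes were 1.11 for *DDIT3*, 0.69 for *CHAC1*, 0.50 for *ASNS*, 0.36 for *TRIB3* and 0.35 for *PSAT1* on the log2 scale, and for these 5 genes every TRA2B KD library was above every control in TPM as deposited, which held for 8.03% of all genes. *DDIT3*, for example, was at 15.7, 15 and 9.52 TPM against 7.19, 8.60 and 4.23 TPM, with adjusted p = 0.285 and a 95% interval from 0.32 to 1.90. Leaving out Control KD replicate 2 brought *CHAC1* past the threshold (log2 fold change 0.90, adjusted p = 0.0382). The lowest *DDIT3* control, at 4.23 TPM, was replicate 3, the library that stood apart. When any 1 library was left out, the *DDIT3* change in TRA2B KD lay between 0.73 and 1.35. That of *ATF4* in TRA2A KD, 0.48 with all libraries, lay between 0.07 and 0.75. Neither passed in any of these fits.

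In NCI-H23, 2 of 9 genes rose in the TRA2A KD, against 0.976% of all genes that passed. These were the biosynthetic genes *ASNS* and *PSAT1*. *ASNS* was at 94.7, 90.4 and 99.6 TPM against 67.1, 82.6 and 76.3 TPM in Control KD (log2 fold change 0.35, SE 0.0583, adjusted p = 0.0191). *PSAT1* was at 56.8, 54.6 and 58.5 TPM against 40.6, 46.1 and 44.5 TPM (log2 fold change 0.39, SE 0.0527, adjusted p = 0.00583). Neither group overlapped its control. Both calls were lost when the other groups were left out of the model (adjusted p = 0.25 and 0.153). That of *ASNS* was also lost with no filter (0.0507), with the TPM as deposited (0.104) and without Control KD replicate 1 (0.0631), Control KD replicate 3 (0.0624) or TRA2A KD replicate 3 (0.0741), and with the replicate number as a block (0.0518). *SLC7A11* had the largest change there, 0.56, and an adjusted p of 0.0612. In the NCI-H23 TRA2B KD, 0 of 9 passed in limma, against 0.196% of all genes, and 4 had an unadjusted p under 0.05, against 10.6%. Mitochondrial genes took 17.8% to 19.3% of TPM in these libraries and 23.1% to 31.9% in Control KD, and their part in the result was not tested. The largest values were 0.54 for *DDIT3* and 0.52 for *CHAC1*.

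The DKD was tested against the sum of both single knockdowns on the log2 scale. As given above, the single knockdowns had lower target means than the DKD and higher means of the other paralog. The part of this in the result was not tested. In A549 the excess was above 0 and passed for 6 of 10 genes, against 5.84% of all genes with such an excess. In NCI-H23 it passed for 7 of 9, against 8.23%. Of all genes called in this test, 39.6% and 39.1% lay above the sum, and 72.7% and 49.5% with the TPM as deposited. For *DDIT3* in A549 the single changes summed to 1.47 and the DKD gave 4.57, an excess of 3.10 (SE 0.508, adjusted p = 0.00302). For *TRIB3* the sum was 0.65 in A549 and 0.37 in NCI-H23, and the excess was 2.39 (adjusted p = 3.27e-05) and 2.32 (adjusted p = 1.65e-05). *ASNS* exceeded its sum by 1.96 and 1.48, *CHAC1* by 2.90 and 1.53, *XBP1* by 1.46 and 0.73, and *PSAT1* by 0.78 and 0.47, and each of these passed in both lines.

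*SLC7A11* exceeded its sum by 0.77 in NCI-H23 (adjusted p = 0.00878) and by 0.83 in A549, which did not pass (adjusted p = 0.087). Without Control KD replicate 3 the A549 excess was 0.54 with an adjusted p of 0.0286, and without Control KD replicate 2 it was 0.98 with 0.0471. *ATF4* did not pass this test in either line. Its excess was 0.59 in A549 (95% interval from -0.31 to 1.48, adjusted p = 0.365) and 0.39 in NCI-H23 (from 0.04 to 0.74, adjusted p = 0.106). In A549 this rested on the control that stood apart, since without Control KD replicate 3 the excess was 1.02 (adjusted p = 0.00527). In NCI-H23 it passed without Control KD replicate 1 (0.48, adjusted p = 0.0493), with a minimum of 5 TPM (0.45, adjusted p = 0.0452) and after quantile normalization (0.58, adjusted p = 0.0129).

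**Figure D3:**
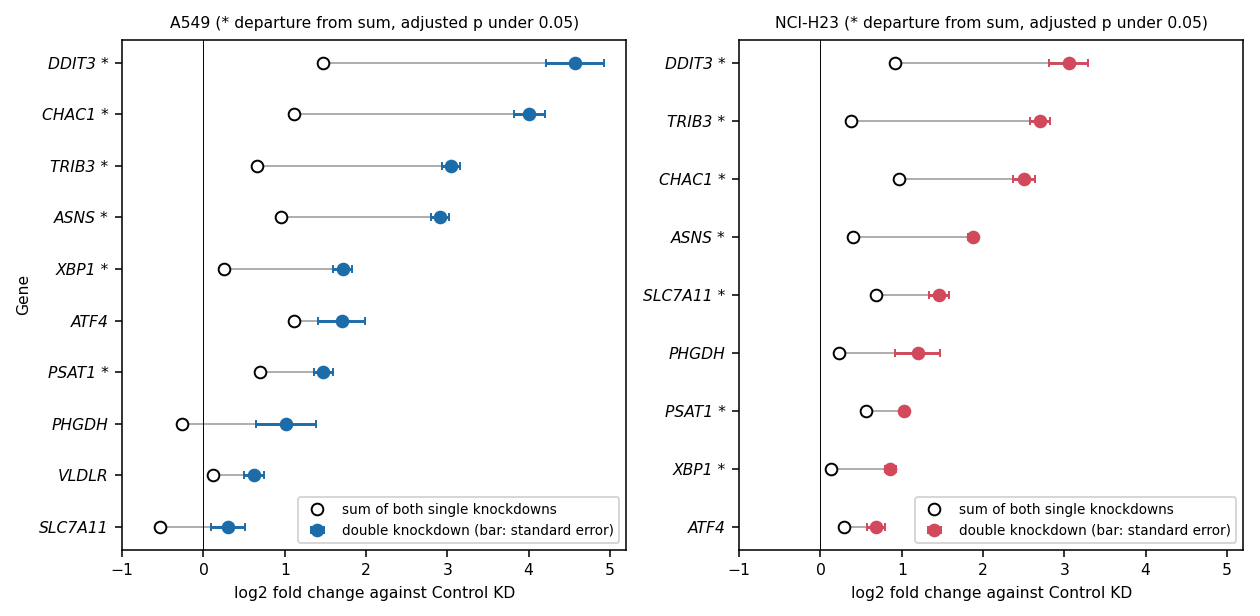
Log2 fold change against Control KD of each gene in the DKD (filled, with the standard error as a bar) and the sum of its changes in both single knockdowns (open), for A549 and NCI-H23, with an asterisk where the departure from the sum had an adjusted p under 0.05. The grey lines show an excess for every gene tested, between 0.50 and 3.10 (A549) and between 0.39 and 2.32 (NCI-H23).

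The wider programme was read from 8 gene lists that were chosen with earlier results of these data known. They are described by counts, to be read against the shares of all genes given above for the DKD, 14.3% higher and 16.3% lower in A549 and 20% higher and 23.2% lower in NCI-H23. Of 12 aminoacyl-tRNA synthetases, which charge tRNAs with amino acids, 9 rose and 1 fell in the A549 DKD, and 8 rose and 1 fell in NCI-H23. *CARS1* changed by 1.73 and 0.95, *AARS1* by 1.27 and 1.38, *SARS1* by 1.27 and 1.21 and *GARS1* by 1.25 and 0.97 on the log2 scale in A549 and NCI-H23. Of 11 further genes of serine, one-carbon and other amino acid synthesis, 8 rose and 1 fell in A549, and 6 rose and 1 fell in NCI-H23. *MTHFD2*, a mitochondrial one-carbon enzyme, rose by 1.4 and 0.20, *PYCR1*, a proline enzyme, by 0.64 and 0.49, and *SHMT2*, which splits serine, by 0.47 and 0.15. *CBS*, an enzyme of cysteine synthesis, rose by 1.88 in A549 but fell by 0.41 in NCI-H23. Of the amino acid transporters, 7 of 9 rose in A549 and 7 of 8 in NCI-H23, and 0 fell. The neutral amino acid transporter *SLC1A4* rose by 1.35 and 0.81, the glycine transporter *SLC6A9* by 1.54 and 1.03 and *SLC38A1* by 0.50 and 0.52. *SLC1A5* rose by 0.87 in A549 and had a value of 0.14 in NCI-H23 that did not pass.

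Stress factors and feedback regulators moved furthest. In A549 12 of 13 rose, 0 fell and their median was 2.01, and in NCI-H23 10 rose, 1 fell and the median was 1.55. *ATF3*, a transcription factor of many stresses, rose by 4.51 and 2.12. *PPP1R15A*, the phosphatase subunit that reverses eIF2 alpha phosphorylation, rose by 3.60 and 1.55 and *STC2* by 2.85 and 1.57. *VEGFA* rose by 1.20 in A549, and its value of 0.39 in NCI-H23 did not pass. Of 5 death genes downstream of CHOP, 3 rose in both lines and 1 fell in A549. *BBC3* (PUMA) rose by 1.94 and 1.21, *TNFRSF10B* (a TRAIL receptor) by 1.24 and 1.37 and *PMAIP1* (NOXA) by 2.74 and 0.99, while *ERO1A*, which is also in the ER list below, fell by 0.52 in A549 and had a value of -0.22 in NCI-H23.

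Upstream of *ATF4* stand the eIF2 alpha kinases and their machinery. Of 9 genes, 0 rose and 1 fell in A549, and 0 rose and 4 fell in NCI-H23. With the TPM as deposited, 1 rose and 2 fell in NCI-H23. *EIF2AK1* (HRI), the kinase of haem and mitochondrial stress, fell by 0.74 and 0.24. *EIF2AK4* (GCN2), the kinase of amino acid shortage, fell by 0.34 in NCI-H23. *GCN1*, its activator, fell by 0.62 there, and its value of -0.78 in A549 did not pass. *EIF2B5* passed in neither DKD, with 0.69 and 0.06. These kinases act through their activity, which mRNA does not measure.

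Genes of the ER did not move as one. Of 24 tested ER chaperones and genes of ER-associated degradation, 4 rose and 9 fell in A549, with a median of -0.25. In NCI-H23 9 rose and 9 fell, with a median of 0.03. The split moved with scaling. With the TPM as deposited it was 6 against 6 in A549 and 10 against 5 in NCI-H23, and without A549 Control KD replicate 3 it was 5 against 14. *HERPUD1*, a gene of ER-associated degradation, rose by 1.44 and 2.00. *PDIA4* and *PDIA6*, which form disulphide bonds in the ER, fell by 1.05 and 0.53 and by 0.42 and 0.35. *HYOU1*, an ER chaperone, fell by 0.44 in A549 and rose by 0.47 in NCI-H23. *HSPA5*, the central chaperone BiP, was picked out after its values were seen. It went from 158 to 211 TPM in A549 (log2 fold change 0.34, adjusted p = 0.0659) and rose from 231 to 377 TPM in NCI-H23 (0.55, adjusted p = 1.64e-05). *ERN1*, which encodes IRE1, was picked in the same way and rose by 1.56 and 1.09.

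NRF2, the factor of oxidative stress, also acts on *SLC7A11*. Of its other targets, in A549 1 of 8 rose and 3 fell, and in NCI-H23 5 of 7 rose and 1 fell. *HMOX1*, haem oxygenase, rose by 1.11 in A549 and by 4.45 in NCI-H23. *NQO1* rose by 1.51 and *TXNRD1* by 0.79 in NCI-H23, and their A549 values of 0.18 and -0.03 did not pass. *SRXN1* fell by 0.32 in A549 and rose by 0.41 in NCI-H23.

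**Figure D4:**
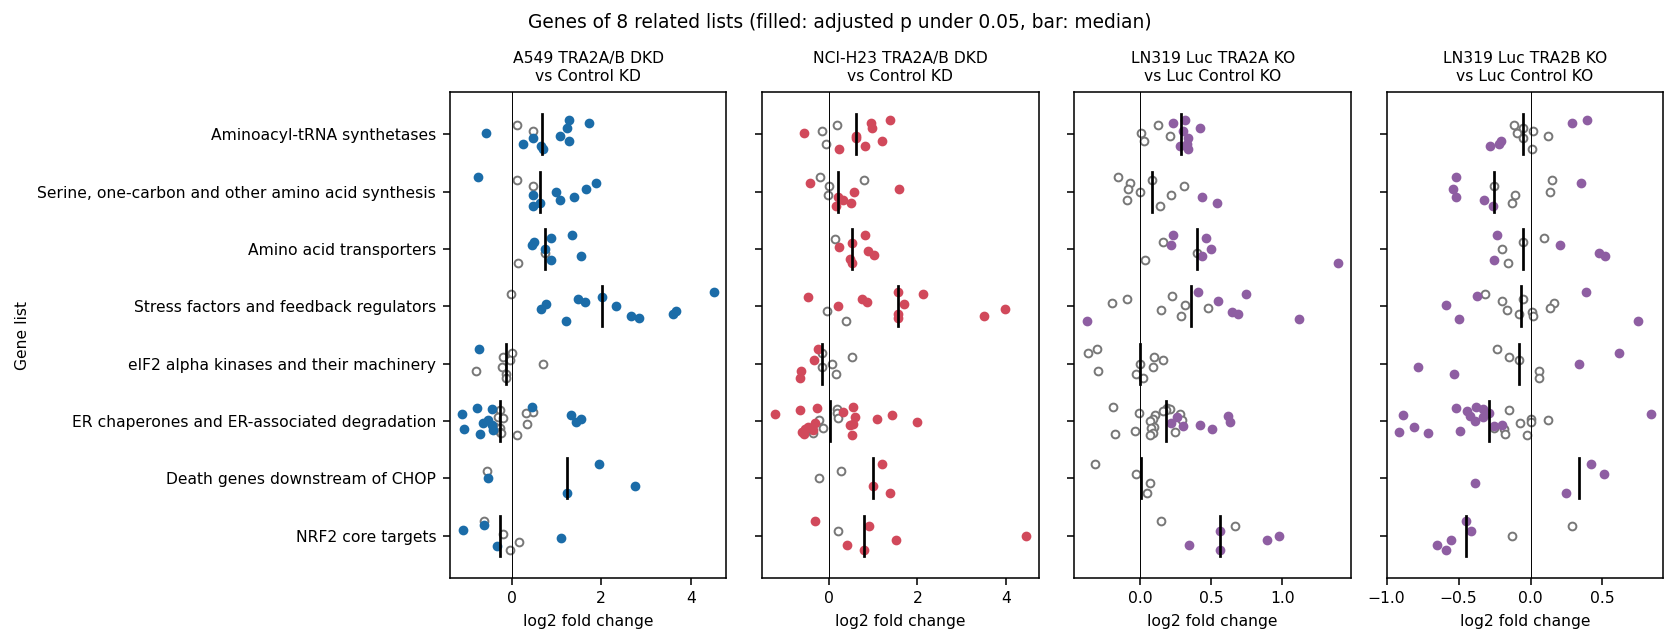
Log2 fold change of single genes in 8 lists, in the DKD of A549 and NCI-H23 and in the Luc TRA2A KO and Luc TRA2B KO of LN319, filled where the adjusted p was under 0.05, with the median as a bar. Each panel has its own horizontal scale. Stress factors have medians of 2.01 and 1.55 in the DKD panels, whereas ER chaperones spread to both sides of 0 there and lie mainly below 0 in the LN319 Luc TRA2B KO.

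In the glioma lines, most of the set rose after loss of *TRA2A* alone in LN319, and none passed in LN229. In LN319 Luc TRA2A KO, 8 of 10 genes rose and 0 fell, against 6.82% of all tested genes that were higher and 7.44% that were lower. The median log2 fold change of the 10 was 0.46 where that of all genes was 0.01. Of all genes called, 47.8% were higher, and 33.9% with the TPM as deposited. In LN229 Luc TRA2A KO, 0 of 10 passed in limma, against 3.68% of all genes, and 2 had an unadjusted p under 0.05, against 21.6%. The response was not compared between the lines by a test. *TRA2A* mRNA was left at 33.2% of control in LN319 and at 62.9% in LN229, and the part of this in the result was not tested.

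The LN319 increases were small and of like order across roles. *ASNS* was at 35.7, 38.8 and 34.1 TPM in Luc Control KO and at 56.5, 62.2 and 58.7 TPM in Luc TRA2A KO. The groups did not overlap, and the log2 fold change was 0.75 (SE 0.0852, adjusted p = 2.43e-04). *CHAC1* went from 7.72, 7.41 and 6.13 TPM to 12.6, 11.4 and 12.4 TPM (0.81, SE 0.132, adjusted p = 0.00172) and *DDIT3* from 67.0, 63.7 and 54.6 TPM to 109.7, 98.9 and 83.2 TPM (0.69, SE 0.106, adjusted p = 0.00129). Each of these knockout libraries was above each control. *PSAT1* rose by 0.57 (adjusted p = 7.24e-04), *ATF4* by 0.35 (adjusted p = 0.00242), from 249, 229 and 224 TPM to 298, 279 and 295 TPM, *SLC7A11* by 0.62 (adjusted p = 0.0237), *XBP1* by 0.30 (adjusted p = 0.026) and *TRIB3* by 0.25 (adjusted p = 0.0408). The last 3 were near the threshold. *TRIB3* lost its call without any 1 of the 6 libraries other than Luc Control KO replicate 1 (adjusted p from 0.0651 to 0.141), and with the TPM as deposited (0.168), after quantile normalization (0.0621), with no filter (0.0857), with a minimum of 5 TPM (0.0501) or with only these groups in the model (0.114). *SLC7A11* lost it without replicate 1 or 3 of either group (adjusted p from 0.0639 to 0.0713), with the TPM as deposited (0.0522) and with no filter (0.0567). *XBP1* lost it without Luc Control KO replicate 2 or 3 or Luc TRA2A KO replicate 3 (adjusted p from 0.0717 to 0.0893), with no filter (0.0592) and with only these groups in the model (0.136). The count was between 5 and 7 when 1 library was left out, and 5 without Luc Control KO replicate 3, where 5.71% of all genes were higher. Mitochondrial genes took 13.2% to 15% of TPM in Luc TRA2A KO and 12.1% to 12.8% in the controls, and their part in the result was not tested. *PHGDH* did not pass, at 0.13 (95% interval from -0.23 to 0.50). *VLDLR* was at 173, 178 and 185 TPM, below the controls at 197, 224 and 201 TPM, with a change of -0.18 that did not pass (adjusted p = 0.102) but did with the TPM as deposited (-0.21, adjusted p = 0.0169).

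**Figure D5:**
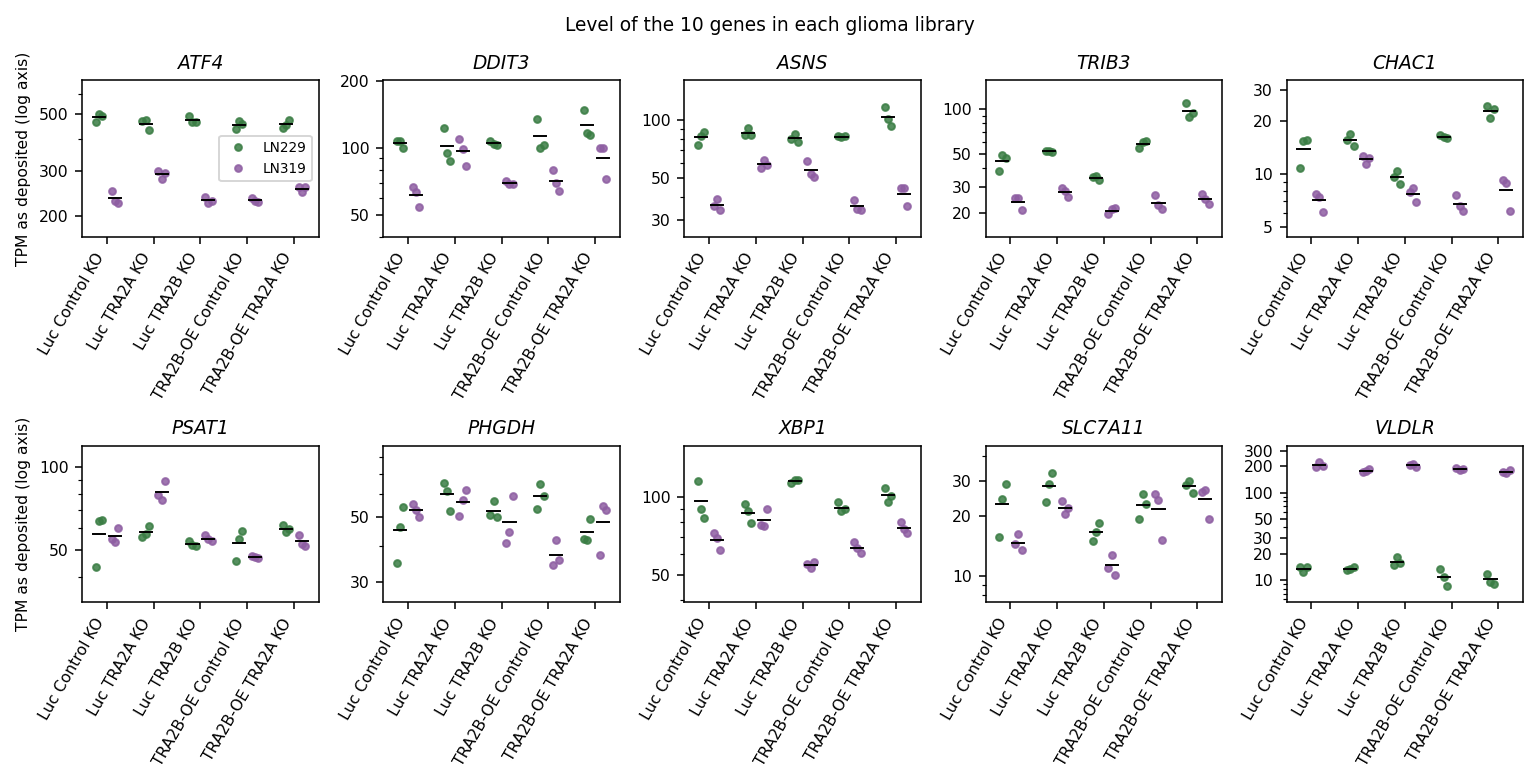
TPM as deposited (log axis) of the 10 genes in each LN229 (green) and LN319 (purple) library, with 3 points per group and a black bar at the mean. In LN319, *ASNS* was between 56.5 and 62.2 TPM in Luc TRA2A KO and between 34.1 and 38.8 TPM in its control, while in LN229 the group means of *TRIB3* run from 34.7 to 97.7 TPM and those of *CHAC1* from 9.61 to 22.9 TPM.

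Other genes of the programme followed in LN319 Luc TRA2A KO. The counts are to be read against the 6.82% of all genes that were higher and the 7.44% that were lower. Among the tRNA synthetases 8 of 12 rose, among the transporters 6 of 9, among the stress factors 6 of 14 with 1 that fell, and among the amino acid enzymes 2 of 11. *GARS1* rose by 0.42, *SLC1A5* by 0.46, *PPP1R15A* by 0.69, *ATF3* by 0.74 and *STC2* by 1.11 on the log2 scale, and *VEGFA* fell by 0.37. Of 25 ER genes 7 rose and 0 fell, with *HSPA5* at 0.42, *HERPUD1* at 0.63 and *PDIA4* at 0.50. The last of these fell in both lung DKDs. Of 7 NRF2 targets 5 rose, among them *HMOX1* by 0.98 and *NQO1* by 0.89. Of the death genes 0 of 4 and of the kinase group 0 of 9 passed in limma.

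In LN319 Luc TRA2B KO, 1 of 10 genes rose and 3 fell, against 18.6% of all genes that were higher and 24% that were lower, so the share of members called was near the background. Mitochondrial genes took 18.3% to 20.6% of TPM in the Luc TRA2B KO libraries and 12.1% to 12.8% in the controls, and their part in the result was not tested. *ASNS* was the gene that rose, to 61.3, 52.7 and 50.7 TPM, above every control (log2 fold change 0.49, SE 0.0852, adjusted p = 6.52e-04). *XBP1* fell to 55.3, 52.9 and 56.1 TPM, below the controls at 72.9, 69.5 and 62.6 TPM (-0.42, SE 0.0794, adjusted p = 0.00106). *SLC7A11* fell to 10.9, 12.8 and 10.1 TPM from 14.4, 16.2 and 13.4 TPM (-0.49, adjusted p = 0.0281). This call was lost without any 1 of 4 of the 6 libraries (adjusted p from 0.061 to 0.125), namely Luc Control KO replicates 1 and 2 and Luc TRA2B KO replicates 1 and 3, and with a minimum of 5 TPM (0.0558). *TRIB3* fell by 0.30 (adjusted p = 0.00643), while its TPM overlapped between the groups. With the TPM as deposited, in which the median of all genes moved to 0.12, *TRIB3* and *SLC7A11* no longer passed and the count was 2. Of all genes called, 43.7% were higher with scaling and 56.4% without it.

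The 2 knockouts of LN319 were set against each other directly, a contrast added after the values were seen. *TRA2A* KO was above *TRA2B* KO for 8 of 10 genes, against 26.1% of all genes that were higher and 21% that were lower. Of all genes called, 55.4% were higher with scaling and 39.4% without it. *SLC7A11* differed by 1.11 (SE 0.162, adjusted p = 1.27e-04), *CHAC1* by 0.79, *XBP1* by 0.72, *PSAT1* by 0.70, *DDIT3* by 0.62, *TRIB3* by 0.55 and *ATF4* by 0.48 on the log2 scale. For each of these 7 genes all 3 *TRA2A* KO libraries were above all 3 *TRA2B* KO libraries in TPM as deposited, which held for 22.7% of all genes. *ASNS* differed by 0.26 (adjusted p = 0.0246) and its groups overlapped. It did not pass with the TPM as deposited (0.11, adjusted p = 0.356), after quantile normalization (0.281), with a minimum of 5 TPM (0.127), with only these groups in the model (0.062), or without replicate 2 or 3 of either group (from 0.0797 to 0.17). *PHGDH* and *VLDLR* did not pass. *VLDLR* differed by -0.05, with *TRA2A* KO libraries at 173 to 185 TPM, all below the *TRA2B* KO libraries at 198 to 211 TPM. It passed as lower with the TPM as deposited (-0.20, adjusted p = 0.00779) and after quantile normalization (-0.29, adjusted p = 0.000473). *PHGDH* passed as higher with the replicate number as a block (0.0316) and without Luc TRA2A KO replicate 1 (0.0455) or Luc TRA2B KO replicate 3 (0.0232). Among the lists, 19 of 25 ER genes were higher and 1 lower in *TRA2A* KO than in *TRA2B* KO (17 and 1 without scaling, 17 and 2 under quantile normalization), and 6 of 7 NRF2 targets were higher. In *TRA2B* KO against control, 15 of 25 ER genes fell and 1 rose, a split that was 10 to 2 after quantile normalization.

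In LN229 Luc TRA2B KO, 0 of 10 genes passed in limma, against 0.568% of all genes, and 4 had an unadjusted p under 0.05, against 23.3%. This rested on Luc Control KO replicate 1. *CHAC1* was at 9.67, 10.4 and 8.81 TPM against 10.8, 15.5 and 15.5 TPM in Luc Control KO, with a log2 fold change of -0.56 (adjusted p = 0.066). *TRIB3* was at 35, 35.6 and 33.6 TPM against 38.4, 49.5 and 47.2 TPM (-0.41, adjusted p = 0.074). In both genes the lowest control was replicate 1. Without that library 5 of 10 genes passed, against 20.8% of all genes, with *CHAC1* at -0.74, *SLC7A11* at -0.73, *TRIB3* at -0.53, *PSAT1* at -0.34 and *XBP1* at 0.36 (adjusted p from 0.00183 to 0.0377). With the replicate number as a block, *TRIB3* (adjusted p = 0.0464) and *CHAC1* (0.0401) passed, against 7.01% of all genes. *S100B* was highest in replicate 1 in each LN229 group, as given above, and the part of this in the result was not tested.

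The difference between the LN229 knockouts does not use that control group and was also added after the values were seen. Of 10 genes 4 passed, against 34.1% of all genes in either direction, so the share of members called was near the background. *SLC7A11* was higher in *TRA2A* KO than in *TRA2B* KO by 0.82 (adjusted p = 0.00674), *CHAC1* by 0.76 (0.00152) and *TRIB3* by 0.65 (9.61e-04), whereas *XBP1* was lower by a difference of -0.35 (0.0192). The 95% interval of the difference ran from -0.14 to 0.16 for *ATF4* and from -0.29 to 0.29 for *DDIT3*, neither of which passed. The call of *XBP1* was lost without Luc TRA2A KO replicate 3 (0.0897) or Luc TRA2B KO replicate 1 (0.0548), and with no filter (0.111).

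In LN229 TRA2B-OE Control KO, 0 of 10 passed in limma, against 1.03% of all genes, and 3 had an unadjusted p under 0.05, against 14.2%. In LN319, 1 of 10 passed, *PSAT1*, which fell to 47.7, 47.4 and 47.0 TPM from 54.8, 53.8 and 60.2 TPM (log2 fold change -0.33, adjusted p = 0.038), against 4.31% of all genes. The call was lost without any 1 of 4 of the 6 libraries (adjusted p from 0.0886 to 0.135), namely Luc Control KO replicates 1 and 3 and TRA2B-OE Control KO replicates 1 and 2, with no filter (0.0821) and with only these groups in the model (0.135). Without TRA2B-OE Control KO replicate 3 *SLC7A11* passed as well (0.66, adjusted p = 0.0135).

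In the overexpressing cells, *TRA2A* KO raised 2 of 10 genes in LN229, against 6.07% of all genes that passed, and 0 of 10 in LN319, where 2.77% of all genes passed in limma and 7 of the 10 had an unadjusted p under 0.05, against 18% of all genes. In LN229, *TRIB3* went from 54.9, 59.9 and 61.2 TPM to 109.9, 88.9 and 94.3 TPM (log2 fold change 0.71, SE 0.101, adjusted p = 0.00278) and *ASNS* from 82.7, 81.5 and 82.8 TPM to 117, 102 and 94.1 TPM (0.31, SE 0.078, adjusted p = 0.035). Both pairs of groups were apart. The call of *ASNS* was lost without any 1 of 5 of the 6 libraries (adjusted p from 0.0537 to 0.0958), TRA2B-OE TRA2A KO replicate 3 being the exception, and with no filter (0.122) or only these groups in the model (0.113). *TRA2A* mRNA itself did not pass in the LN229 comparison, with means of 69.9 TPM against 80.2 TPM in TRA2B-OE Control KO. That control was already below the 109 TPM of Luc Control KO.

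Whether overexpression altered the response to *TRA2A* KO was tested as a difference of differences. In LN319, 0 of 10 passed in limma, against 0.0207% of all genes, and 3 had an unadjusted p under 0.05, against 7.91%. The response of *ASNS* was 0.75 in Luc cells and 0.27 in TRA2B-OE cells, a difference of -0.48 (95% interval from -0.74 to -0.22, adjusted p = 0.334). *CHAC1* differed by -0.52 (from -0.92 to -0.12, adjusted p = 0.513) and *PSAT1* by -0.32 (from -0.57 to -0.08, adjusted p = 0.489). The intervals of these 3 genes, which are not adjusted, lie below 0, and none passed over all genes tested. *XBP1* had responses of 0.30 and 0.31. In LN229, 0 of 10 passed in limma, against 0% of all genes, and 2 had an unadjusted p under 0.05, against 5.68%. *TRIB3* differed by 0.47 (from 0.16 to 0.78, adjusted p = 0.714) and *PHGDH* by -0.88 (from -1.32 to -0.43, adjusted p = 0.565).

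The members were also compared by likeness over the 54 libraries, after each line's mean was taken out, for 13381 genes tested in all lines. These correlations are descriptions, since libraries of a group and the strong DKD groups are shared by every gene. The genes most like *ASNS* were *CHAC1* (Pearson r = 0.962), *CARS* (0.958), *DDIT3* (0.944), *PCK2* (0.940) and *CTD-3185P2.1* (0.939). Those most like *DDIT3* were *PPP1R15A* (0.949), *CHAC1* (0.948), *BEX2* (0.947), *SARS* (0.944) and *ASNS* (0.944). *ATF4* stood at rank 39 for *DDIT3* (0.895) and at rank 173 for *ASNS* (0.816). *PHGDH* and *SLC7A11* were least like *ASNS* among the members compared, with 0.668 and 0.497. *VLDLR* was not compared, since it was not tested in NCI-H23.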

How the data were processed

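Poly-T selected RNA was sequenced, and the authors quantified it with kallisto 0.48.0 on GRCh38 and deposited 1 table of gene-level TPM per cell line (STAR 2.7.3 is also listed in the submitters' processing notes). All 54 columns were matched to samples by library name, and 0 were left unmatched. The authors' limma-voom test starts from counts and was not repeated.

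Each line was fitted separately with limma 3.58.1 in R 4.3.3 on log2(TPM + 0.1), with a mean-variance trend and all groups of the line, after a filter (at least 1 TPM in at least 4 libraries) and scaling by a trimmed mean of log ratios (trims of 30% and 5%). Tests were two-sided, with Benjamini-Hochberg adjustment over all genes of a line at 0.05. The fit was tested on simulated data. Fold changes of genes with low TPM are understated.

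The 10 genes and 8 lists were chosen with earlier results of these data known; 1 further list is not reported here. Also named were, per list, up to 4 genes that passed in the most of 14 comparisons, and the 5 genes most like *ASNS* and *DDIT3*. Alternatives were a pseudocount of 1, no filter or 5 TPM, TPM as deposited, quantile normalization, a replicate block, a fit of only the compared groups, a minimum fold, and leaving out each library. Direct contrasts of the 2 glioma knockouts were added after the data were seen. Motifs were searched with Python 3.11.15 and figures drawn with matplotlib 3.10.9.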

Additional observations from a re-analysis of the deposited data

Results flagged for a closer look

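After loss of *TRA2B*, 4 of the genes had values in opposite directions in different cell lines, in that every library of the perturbed group lay above the controls in one line and below them in another in TPM as deposited. After scaling, the *XBP1* values of NCI-H23 overlapped with their controls. The share of all genes with such opposite values was not counted, so the count of 4 has no background beside it. In NCI-H23 TRA2B KD the median log2 fold change of all genes was 0.003 with scaling and 0.116 with the TPM as deposited. The difference between lines was not tested, and the lung lines had a knockdown where the glioma lines had a knockout. For *TRIB3* the log2 fold change was 0.36 (A549), 0.24 (NCI-H23) and -0.41 (LN229). For *CHAC1* it was 0.69 (A549), 0.52 (NCI-H23) and -0.56 (LN229). *XBP1* had 0.10 in NCI-H23 and -0.42 in LN319, and *SLC7A11* had 0.13 in NCI-H23 and -0.49 in LN319. Of these values, those of *XBP1* and *SLC7A11* in LN319 passed the adjusted threshold.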

How the results depend on the processing

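Of 196 values of a gene in a comparison, 162 kept their side of the threshold under every alternative other than the minimum fold, and of 59 that passed, 48 did. With the minimum fold as well these were 138 and 24. None changed sign while called. With a minimum log2 fold change of 1, the number passing fell from 2 to 0 in NCI-H23 TRA2A KD, from 7 to 4 in the NCI-H23 test against the sum, from 2 to 0 in LN229 TRA2B-OE TRA2A KO, from 4 to 0 in LN229 *TRA2A* KO against *TRA2B* KO, and in LN319 from 8 to 0 (Luc TRA2A KO), 4 to 0 (Luc TRA2B KO), 1 to 0 (TRA2B-OE Control KO) and 8 to 1 (*TRA2A* KO against *TRA2B* KO). With no filter it was 1 in NCI-H23 TRA2A KD, 1 in LN229 TRA2B-OE TRA2A KO, 5 in LN319 Luc TRA2A KO and 0 in LN319 TRA2B-OE Control KO. With the TPM as deposited it was 1 in NCI-H23 TRA2A KD and 2 in LN319 Luc TRA2B KO. With only the compared groups it was 0 in NCI-H23 TRA2A KD, 1 in LN229 TRA2B-OE TRA2A KO and 0 in LN319 TRA2B-OE Control KO. In LN319 TRA2B-OE TRA2A KO, where 0 passed, 1 did with a minimum of 5 TPM and 1 after quantile normalization. Apart from the smaller sample when groups were left out, the cause was not tested.

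Same-numbered replicates did not meet the rule for pairing over all genes, although *S100B* was highest in replicate 1 of every LN229 group: correlations of their deviations ran from -0.154 to 0.212, and no comparison had all 3 above 0.1. The rule does not show that replicates were unrelated in LN229. There the block raised the count over all genes from 681 to 1585 in Luc TRA2A KO and from 105 to 1297 in Luc TRA2B KO. With the replicate number as a block, 1 passed in NCI-H23 TRA2A KD, 2 in LN229 Luc TRA2B KO (*TRIB3* and *CHAC1*), 3 in LN319 TRA2B-OE Control KO and 1 in LN319 TRA2B-OE TRA2A KO.

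Leaving out 1 library gave 0 to 1 in A549 TRA2B KD, 1 to 2 in NCI-H23 TRA2A KD, 0 to 5 in LN229 Luc TRA2B KO, 1 to 2 in LN229 TRA2B-OE TRA2A KO, and in LN319 5 to 7 in Luc TRA2A KO, 0 to 2 in TRA2B-OE Control KO and 0 to 1 in TRA2B-OE TRA2A KO. TPM carry no depth, so what depth limits could not be assessed.

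Counts over all genes that moved by more than 1.5 times were as follows, each after the count as reported. With a minimum log2 fold change of 1, the count went from 34 to 19 in A549 TRA2A KD, from 5023 to 2099 in A549 TRA2A/B DKD, from 2417 to 1267 in A549 test against the sum, from 159 to 41 in NCI-H23 TRA2A KD, from 32 to 18 in NCI-H23 TRA2B KD, from 7035 to 2089 in NCI-H23 TRA2A/B DKD, from 3429 to 1069 in NCI-H23 test against the sum, from 681 to 127 in LN229 Luc TRA2A KO, from 105 to 25 in LN229 Luc TRA2B KO, from 190 to 55 in LN229 TRA2B-OE Control KO, from 1122 to 203 in LN229 TRA2B-OE TRA2A KO, from 6296 to 1371 in LN229 *TRA2A* KO against *TRA2B* KO, from 2752 to 362 in LN319 Luc TRA2A KO, from 8231 to 757 in LN319 Luc TRA2B KO, from 832 to 134 in LN319 TRA2B-OE Control KO, from 534 to 45 in LN319 TRA2B-OE TRA2A KO, from 4 to 2 in LN319 difference of differences and from 9102 to 1224 in LN319 *TRA2A* KO against *TRA2B* KO. With no filter, the count went from 32 to 20 in NCI-H23 TRA2B KD, from 681 to 237 in LN229 Luc TRA2A KO, from 105 to 27 in LN229 Luc TRA2B KO, from 190 to 88 in LN229 TRA2B-OE Control KO, from 1122 to 445 in LN229 TRA2B-OE TRA2A KO, from 0 to 2 in LN229 difference of differences, from 832 to 364 in LN319 TRA2B-OE Control KO, from 534 to 288 in LN319 TRA2B-OE TRA2A KO and from 4 to 17 in LN319 difference of differences. With a minimum of 5 TPM, the count went from 105 to 190 in LN229 Luc TRA2B KO. After quantile normalization, the count went from 105 to 222 in LN229 Luc TRA2B KO. With the replicate block, the count went from 34 to 22 in A549 TRA2A KD, from 159 to 104 in NCI-H23 TRA2A KD, from 32 to 16 in NCI-H23 TRA2B KD, from 681 to 1585 in LN229 Luc TRA2A KO, from 105 to 1297 in LN229 Luc TRA2B KO, from 190 to 329 in LN229 TRA2B-OE Control KO, from 1122 to 1890 in LN229 TRA2B-OE TRA2A KO, from 832 to 1923 in LN319 TRA2B-OE Control KO and from 4 to 0 in LN319 difference of differences. With only the compared groups, the count went from 34 to 1 in A549 TRA2A KD, from 56 to 6 in A549 TRA2B KD, from 5023 to 2922 in A549 TRA2A/B DKD, from 159 to 4 in NCI-H23 TRA2A KD, from 32 to 13 in NCI-H23 TRA2B KD, from 681 to 1 in LN229 Luc TRA2A KO, from 105 to 0 in LN229 Luc TRA2B KO, from 190 to 2 in LN229 TRA2B-OE Control KO, from 1122 to 192 in LN229 TRA2B-OE TRA2A KO, from 2752 to 1632 in LN319 Luc TRA2A KO, from 832 to 41 in LN319 TRA2B-OE Control KO, from 534 to 2 in LN319 TRA2B-OE TRA2A KO and from 4 to 0 in LN319 difference of differences.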
